A study of Mus musculus with 15 samples.

Results

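The 37 genes described here encode aminoacyl-tRNA synthetases of the mouse. They were taken by name, as every gene entry that matched a fixed pattern of synthetase symbols in both expression tables of the study. A mean of at least 1 FPKM in each was required (FPKM, the number of fragments scaled to gene length and to the fragments mapped in the library). A synthetase gene named otherwise would be missed. All 37 matching symbols met that level, of 54343 gene entries in the MC38 table and 55303 in the B16-F10 table. Of these, 20 encode cytosolic enzymes, among which Gars and Kars also supply the mitochondrial enzyme, and 17 encode enzymes of the mitochondrion, whose symbols end in 2. The tables use older symbols, so that Wars, Kars, Gars and Eprs stand for the genes now called Wars1, Kars1, Gars1 and Eprs1. Mars1 appears under its newer name.

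Polyadenylated RNA was sequenced from 15 libraries of cultured mouse tumour cells in which Ssbp4, a gene of the single-stranded DNA binding protein family, had been altered. MC38, a line known as a colon adenocarcinoma although its tissue label reads melanoma, gave 4 wild-type libraries and 3 libraries of cells transduced with a retroviral vector that carries Ssbp4 cDNA and, after an internal ribosome entry site, EGFP. B16-F10, a melanoma line, gave 4 wild-type libraries and 4 libraries labelled knockout, from cells electroporated with Cas9 and a mixture of guide RNAs against Ssbp4. The protocol also describes a control guide RNA against an intergenic stretch, but the labels do not say which wild-type libraries received it, and they name no MC38 group with an empty vector. The labels name neither clones nor separate cultures. The spread behind each p-value is therefore that of the libraries as labelled and may be only technical.

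Aminoacyl-tRNA synthetases join each amino acid to its tRNA and so supply the ribosome with charged tRNA. The cytosol and the mitochondrion mostly use enzymes from separate nuclear genes. Several cytosolic enzymes sit in a multi-synthetase complex held together by the scaffold proteins Aimp1, Aimp2 and Eef1e1. The enzymes fall into class I and class II by the fold of their catalytic domain, and Eprs, which charges both glutamate and proline tRNA, has a domain of each. Many cytosolic synthetase genes are known targets of Atf4, the transcription factor of the integrated stress response, which is translated when eIF2alpha is phosphorylated under amino acid shortage or other stress and binds a C/EBP-ATF response element.

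Matches to the letters of such an element are shown first, because the promoter windows of several cytosolic members hold them. The letters TGATGNAA were searched on both strands of RefSeq promoter windows on GRCm38.p6, from 250 bases before to 50 bases after each gene's start. A window was found for 27 members, 13 cytosolic and 14 mitochondrial. The motif was present in 5 of the 13 cytosolic windows and in 0 of the 14 mitochondrial ones, and 4.51% of the 27025 genes with a window hold it. The sites lie on chromosome 8 at chr8:111033708-111033737 and chr8:111033829-111033858 (Aars), chromosome 6 at chr6:55037949-55037978 (Gars), chromosome 13 at chr13:49682115-49682144 (Iars), chromosome 15 at chr15:11399666-11399695 (Tars) and chromosome 4 at chr4:129189884-129189913 (Yars). Each line gives 30 bases on the strand of the gene, 5′ to 3′, and the capitals mark the 8 bases of the motif, which in all but Yars is read from the other strand.
Aars, upstream site: catgtcctagctttcttgagcaTTGCATCA
Aars, downstream site: tgacaaggcgtagcgggtcactTTTCATCA
Gars: cgcctgcggcctggctgcgctaTTTCATCA
Iars: gttgagcctggcactgtcagtaTTGCATCA
Tars: tagggcggggccaggagtcccgTTGCATCA
Yars: caagcggagcgacgagctcagcTGATGCAA
The first base of the motif lay 112, 30 and 15 bases before the start in Aars (upstream site), Gars and Tars, and at positions 10, 8 and 4 in Aars (downstream site), Iars and Yars, counting the start as 1. No window was matched for Cars, Hars, Lars, Nars, Rars, Vars, Wars, Hars2 and Pars2. For 20 of the 28 member windows the bases just after the start were found in a GENCODE M21 transcript of the gene. A match describes these letters in this window and is not a measurement of binding.

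In all 7 MC38 libraries Ssbp4 followed its label, with 13.2 to 17.6 FPKM in wild type and 462 to 581 FPKM in overexpressing cells. In B16-F10 it was 32.4 to 37.4 FPKM in wild type and still 19.0 to 24.3 FPKM in the knockout libraries. Each separation had a two-sided exact permutation p of 0.0286, the smallest its design allows. Depth, read from the steps between low FPKM values, ranged from 32.05 to 37.95 M fragments over the MC38 libraries and from 32.05 to 48.45 M over those of B16-F10. All 7 melanocyte markers were expressed in B16-F10 (summed level 10982 to 14154 FPKM) and were near 0 in MC38 (0.93 to 2.11 FPKM). MC38 expressed few epithelial markers, with the intestinal factor Cdx2 at 0 in every library. Wild-type B16-F10 libraries 3 and 4 stood apart from 1 and 2 on the first principal component of all tested genes, which held 42.79% of the variance: wild-type libraries 3 and 4 scored 17.8 each, libraries 1 and 2 scored -9.43 and -10.3, and the knockout libraries lay between them at -7.81 to -1.91. Among the synthetases 28 of 37 were higher in both wild-type libraries 3 and 4 than in 1 and 2, and 1 was lower in both. The share of all tested genes that split in this way was not counted. The split is therefore not shown to be particular to the synthetases.

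Cytosolic synthetase mRNA was far more abundant than mitochondrial synthetase mRNA, with 1 exception. In wild-type MC38 the cytosolic members ranged from 36.6 FPKM (Farsa, the catalytic subunit of phenylalanyl-tRNA synthetase) to 290 FPKM (Gars, glycine). Mitochondrial members ranged from 1.84 FPKM (Mars2, methionine) to 32.5 FPKM (Rars2, arginine), apart from Lars2 (leucine) at 50.8 FPKM. In wild-type B16-F10 the cytosolic range was 40.1 FPKM (Farsa) to 277 FPKM (Gars), and the mitochondrial range was 2.23 FPKM (Mars2) to 25.1 FPKM (Iars2, isoleucine), apart from Lars2 at 146 FPKM. Gars thus led and Mars2 came last in both lines.

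For 16 mitochondrial enzymes a single cytosolic member of this set charges the same amino acid. The cytosolic mRNA exceeded its mitochondrial partner by a median ratio of 9.98 in wild-type MC38, from 2.14 for Lars over Lars2 to 57.9 for Nars over Nars2 (asparagine). In wild-type B16-F10 the median ratio was 6.80 and the highest, again Nars over Nars2, was 35.4. Lars over Lars2 was the only pair below 1, at a ratio of 0.296. The mean was higher in wild-type MC38 than in wild-type B16-F10 for 25 of the 37 members, a description only, since the tables were made separately and the lines were not tested against each other.

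**Figure D1:**
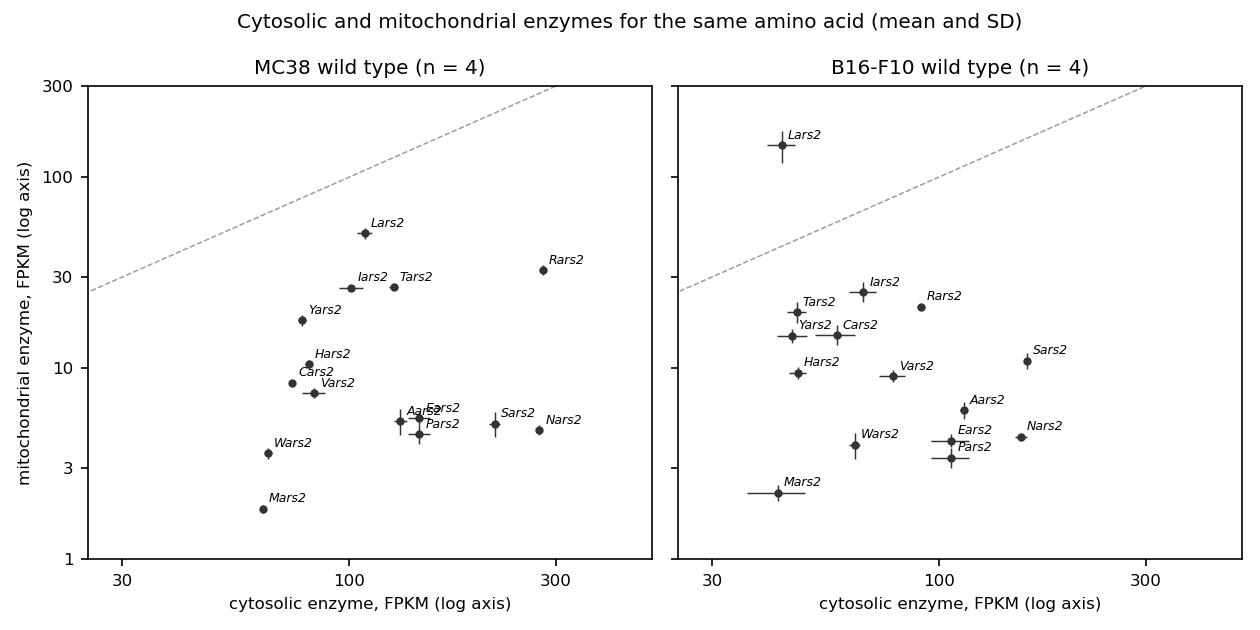
Wild-type mean FPKM of the cytosolic (horizontal, log axis) and mitochondrial (vertical, log axis) enzyme for the same amino acid, labelled by the mitochondrial gene; bars are SD over 4 libraries and the dashed line marks equal levels. Every pair drawn lies under the line except Lars2 in B16-F10, where the ratio was 0.296; Ears2 and Pars2 share Eprs as partner.

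In MC38 cells that overexpressed Ssbp4 the cytosolic synthetases were lower as a group while most mitochondrial ones did not pass the test. Of the 20 cytosolic genes 13 fell and 1 (Dars, aspartate) rose. Of the 17 mitochondrial genes 4 fell and 0 rose. Calls are at an adjusted p under 0.05 in limma on log2(FPKM + 1), with Benjamini-Hochberg adjustment over all 10748 genes tested. By the same test 47.5% of all genes passed, 23.6% lower and 23.9% higher, so the 23.5% of mitochondrial members that fell is close to the background, and the 65.0% of cytosolic members that fell is above it. The median log2 fold change was -0.19 over the cytosolic members, -0.05 over the mitochondrial members and -0.01 over all genes tested. Abundant genes passed as lower more often in this line: of 2597 tested genes with a mean of 30 to 300 FPKM, a range that holds all cytosolic members, 34.9% fell with a median log2 fold change of -0.04. Of 9406 genes at 1 to 60 FPKM, the range of the mitochondrial members, 21.4% fell. These 2 ranges were chosen after the levels were seen, and the difference between the compartments was not tested.

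**Figure D2:**
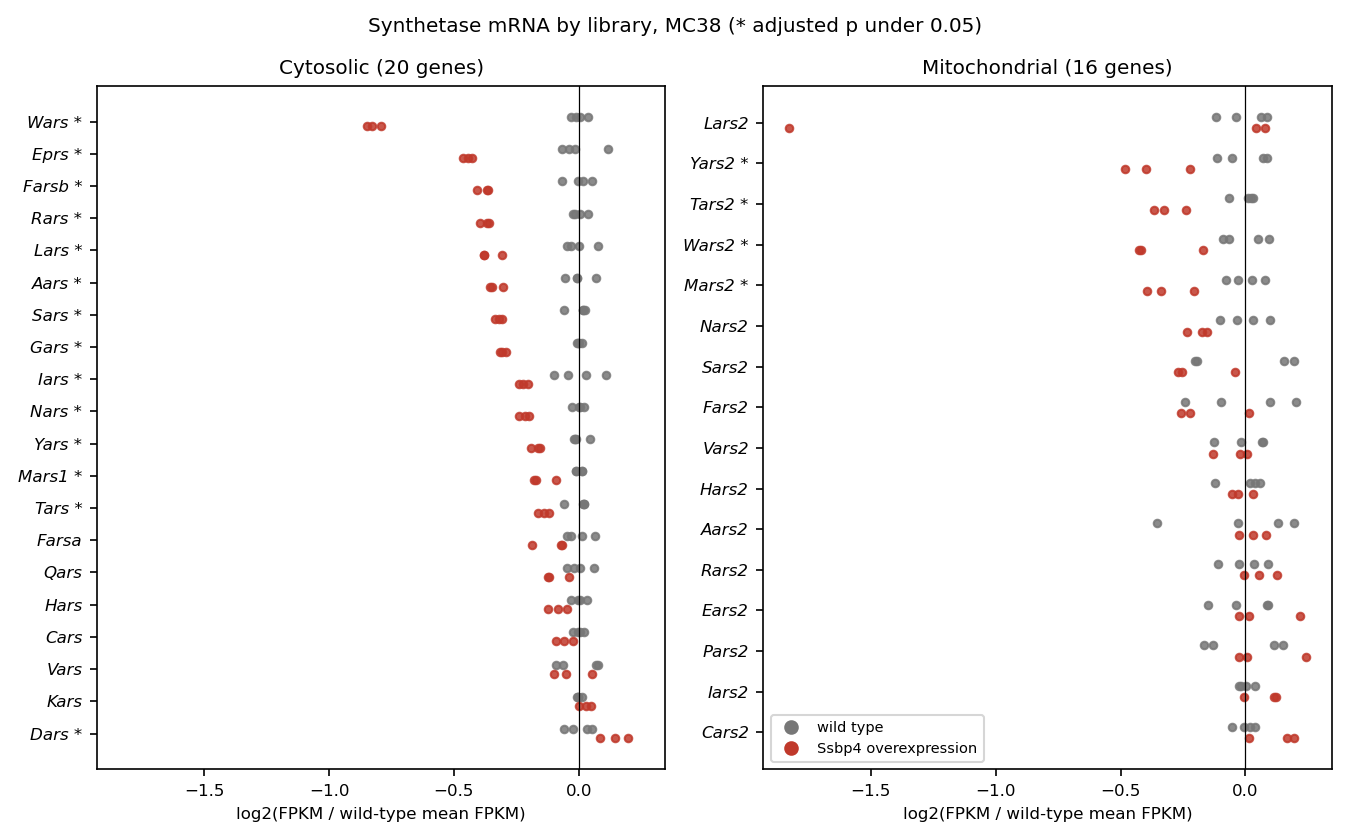
Level of each reported synthetase mRNA in each MC38 library relative to its wild-type mean (log2 ratio of FPKM, horizontal), for 4 wild-type (grey) and 3 overexpressing (red) libraries; asterisks mark genes that passed the adjusted test. Wars stands lowest among the cytosolic genes at a log2 fold change of -0.80, and 1 Lars2 library stands far from the other two of its group.

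Wars, the tryptophanyl-tRNA synthetase, which is known to be induced by interferon gamma, fell the most. It measured 64.5, 66.7, 63.7 and 65.2 FPKM in the wild-type MC38 libraries and 36.6, 37.6 and 36.2 FPKM in the overexpressing ones. The groups did not overlap, and the spread within each was small beside the gap: 65.0 ± 1.29 (SD, n = 4) against 36.8 ± 0.72 (SD, n = 3) FPKM. The log2 fold change was -0.80 (SE 0.033, limma adjusted p = 4.82e-08).

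Groups that did not overlap were also found for enzymes of the multi-synthetase complex. Eprs (glutamate and proline) measured 158, 141, 144 and 138 FPKM in wild type and 105, 107 and 108 FPKM with overexpression. Rars (arginine) measured 287, 275, 281 and 276 FPKM in wild type and 218, 213 and 217 FPKM with overexpression. Lars (leucine) measured 114, 109, 106 and 105 FPKM in wild type and 83.4, 83.4 and 87.7 FPKM with overexpression. In all 3 genes the lowest wild-type library lay above the highest overexpressing library. The log2 fold changes were -0.44 for Eprs (SE 0.044), -0.37 for Rars (SE 0.030) and -0.35 for Lars (SE 0.038), with limma adjusted p-values of 2.70e-05, 5.85e-06 and 4.50e-05.

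The complex as a whole was not uniform. Of its 8 synthetases 5 fell, the other two being Iars (isoleucine, -0.22) and Mars1 (methionine, -0.14) on the log2 scale. Qars (glutamine) at -0.09 and Kars (lysine) at 0.02 did not pass. Kars measured 165, 166, 164 and 165 FPKM in wild type and 165, 171 and 168 FPKM with overexpression, so its groups overlapped (limma adjusted p = 0.510). Dars, also in the complex, measured 45.2, 42.4, 45.8 and 43.4 FPKM in wild type and 46.8, 48.8 and 50.6 FPKM with overexpression. Its groups did not overlap, at a log2 fold change of 0.14 (SE 0.041, limma adjusted p = 0.0186). The call on Dars was lost without overexpressing library 2 (adjusted p = 0.0533) or 3 (adjusted p = 0.0839). The scaffold genes Aimp1, Aimp2 and Eef1e1 all fell, at log2 fold changes of -0.25, -0.15 and -0.24.

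Outside the complex 8 of 12 cytosolic genes fell and 0 rose. Farsb, the other subunit of phenylalanyl-tRNA synthetase, measured 109, 103, 112 and 108 FPKM in wild type and 81.3, 83.8 and 83.6 FPKM with overexpression. Its log2 fold change was -0.38 (SE 0.035, limma adjusted p = 1.60e-05), whereas its partner subunit Farsa had -0.11 (adjusted p = 0.0694) and did not pass. Aars (alanine) measured 131, 138, 126 and 131 FPKM in wild type and 103, 103 and 107 FPKM with overexpression. Sars (serine) measured 219, 219, 208 and 220 FPKM in wild type and 173, 172 and 175 FPKM with overexpression. Neither gene's groups overlapped, and the log2 fold changes were -0.33 for Aars (SE 0.036, adjusted p = 4.46e-05) and -0.32 for Sars (SE 0.032, adjusted p = 2.83e-05). Gars, the most abundant member, measured 288, 290, 289 and 292 FPKM in wild type and 234, 233 and 237 FPKM with overexpression. Wild-type libraries of Gars lay within 4 FPKM of each other, and its log2 fold change was -0.30 (SE 0.028, limma adjusted p = 1.38e-05). Smaller falls were measured for Nars (-0.22), Yars (tyrosine, -0.17) and Tars (threonine, -0.14). Hars (histidine, -0.08), Cars (cysteine, -0.06) and Vars (valine, -0.03) did not pass.

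By class, of 9 class I cytosolic genes 6 fell, and of 10 class II genes 6 fell and 1 rose, Eprs being of both classes. Summed over the 20 cytosolic genes, the level was 2481 to 2552 FPKM in wild type and 2110 to 2148 FPKM with overexpression, while the totals over all genes were 497546 to 511160 and 493532 to 498677 FPKM. Over all 37 members the groups did not overlap in 22, of which 21 were lower and 1 higher in overexpressing cells, so that 56.8% of the members were lower without overlap. Over all genes tested they did not overlap in 50.6%, with 25.1% of the genes tested lower and 25.5% higher.

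Among the mitochondrial genes Yars2 had the largest change that passed. It measured 19.0, 16.5, 18.7 and 17.2 FPKM in wild type and 15.3, 13.5 and 12.8 FPKM with overexpression, a log2 fold change of -0.34 (SE 0.068, limma adjusted p = 0.00222). Tars2 fell by 0.30 on the log2 scale (26.5 ± 0.79 to 21.4 ± 0.99 FPKM, SD, n = 4 and 3, limma adjusted p = 3.40e-04). Wars2 (-0.26, adjusted p = 0.0161) and Mars2 (-0.19, adjusted p = 0.0420) also passed, at wild-type levels of only 3.58 and 1.84 FPKM. Mars2 no longer passed when any 1 library was left out (adjusted p 0.0523 to 0.133), and Wars2 no longer passed without overexpressing library 1 or 3 (adjusted p = 0.0639 and 0.0638). The other 13 mitochondrial genes had log2 fold changes from -0.54 (Lars2) to 0.11 (Cars2). Within that range Nars2 (-0.15), Sars2 (serine, -0.15), Fars2 (phenylalanine, -0.12), Vars2 (-0.04) and Hars2 (-0.02) had negative values. Aars2 (0.04), Rars2 (0.06), Ears2 (glutamate, 0.06), Pars2 (proline, 0.07) and Iars2 (0.07) had positive values. In 10 of the 16 pairs the log2 fold change of the cytosolic gene lay below that of its mitochondrial partner.

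Lars2 owed its low mean to 1 library. It measured 53.1, 53.9, 46.8 and 49.5 FPKM in wild type and 14.3, 52.4 and 53.7 FPKM with overexpression, and did not pass (limma adjusted p = 0.244). Overexpressing library 1 lay 1.82 log2 units under the mean of the other two, the third lowest such difference among 10748 genes, of which 10 were at least 1 unit lower. This comparison of Lars2 was chosen after its values were seen. The mouse Lars2 transcript shares 72 bases at 98.6% identity with the transcript of Gm15564, which was listed at 0 in the 3 overexpressing libraries and at no more than 0.14 FPKM in wild-type MC38.

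The cytosolic members were also divided by what is known of Atf4. Of 13 cytosolic synthetases reported as Atf4 targets in the literature, 11 fell (Wars, Eprs, Lars, Aars, Sars, Gars, Iars, Nars, Yars, Mars1 and Tars) and Cars and Vars did not pass. Of the 7 others 2 fell (Farsb and Rars) and Dars rose. The median log2 fold changes were -0.22 and -0.09, and the difference between these groups was not tested. All 5 genes whose promoter window held the motif (Aars, Gars, Iars, Tars and Yars) were among those that fell, but the windows of 8 other cytosolic genes did not hold it, and Eprs, Farsb, Mars1 and Sars of those fell as well.

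Most genes of the list of Atf4 and its targets outside the synthetases fell too. Of 30 tested genes of that list 25 fell and 1 rose (Ddit4, an inhibitor of mTORC1 signalling, at 0.58), with a median log2 fold change of -0.32. Trib3, a pseudokinase induced under stress, measured 131 to 144 FPKM in wild type and 64.2 to 68.8 FPKM with overexpression, a log2 fold change of -1.04. Ddit3, the transcription factor CHOP, went from 99.8 to 111 FPKM to 47.9 to 54.0 FPKM, a log2 fold change of -1.01. Slc1a5, a glutamine transporter, fell by 0.78 on the log2 scale. Atf4 itself fell by 0.18 on the log2 scale (443 to 390 FPKM as means, limma adjusted p = 0.00245). Motif letters were present in 8 of the 26 promoter windows matched for this list.

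**Figure D3:**
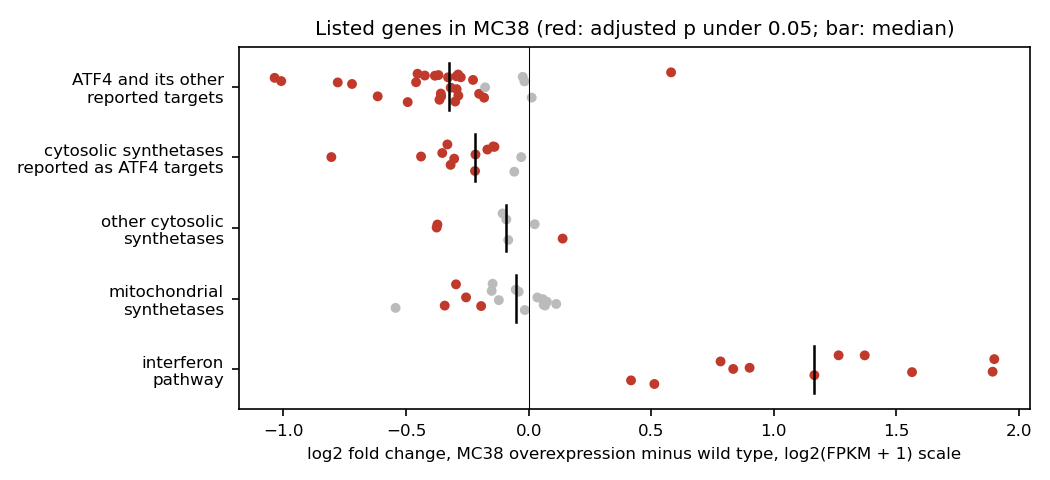
Log2 fold changes (horizontal, overexpressing minus wild-type MC38, on the log2(FPKM + 1) scale) of the tested genes in 5 lists; each point is a gene, red where it passed the adjusted test, and bars mark medians. The medians lie at -0.32 for Atf4 and its other targets, -0.22 for cytosolic synthetases reported as Atf4 targets, -0.09 for the other cytosolic genes, -0.05 for mitochondrial genes and 1.17 for the interferon pathway. The interferon median includes Irf7, Ifit1 and Ifit3, which passed the filter only through overexpressing cells.

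Regulators upstream of Atf4 were mixed. Of 14 genes for eIF2alpha kinases and eIF2 regulators 3 rose and 5 fell, with a median log2 fold change of -0.05. Of all genes tested 23.9% rose and 23.6% fell, and the list was not tested against these shares. Ppp1r15a, the inducible phosphatase subunit that acts on eIF2alpha, fell by 1.03 on the log2 scale, from 66.5 to 81.1 FPKM in wild type to 35.3 to 37.7 FPKM. The kinase genes Eif2ak2 (PKR) and Eif2ak3 (PERK) rose, at 0.65 and 0.58. Myc, a transcription factor known to act on many genes of protein synthesis, fell by 0.94 on the log2 scale, from 163 to 191 FPKM to 91.2 to 96.6 FPKM, and its partner Max (-0.00) did not pass.

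Wars and the interferon pathway moved in opposite directions. All 11 interferon pathway genes rose, with a median log2 fold change of 1.17. Irf7, Ifit1 and Ifit3 had wild-type means of 0.43, 0.44 and 0.24 FPKM, under the filter of 1 FPKM. They were tested only through their level in overexpressing cells, so their calls add little to that count. The median of 1.17 includes these genes. Isg15, a ubiquitin-like protein with a wild-type mean of 17.1 FPKM, rose by 1.56 on the log2 scale. Ifit3 and Ifit1, induced by type I interferon, had 1.90 and 1.89 under the limit just given. The interferon-gamma-responsive Irf1 rose by 0.42 (58.5 to 78.5 FPKM as means). Wars, in the same libraries, fell.

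Other steps of the tRNA pathway gave smaller counts. Xpot, the exportin that carries tRNA out of the nucleus, fell by 0.52 on the log2 scale, and of the 8 genes for tRNA export and delivery to the ribosome 4 fell (also Eef1g at -0.21, Gfm1 at -0.17 and Eef1d at -0.13) and 0 rose. Of 4 genes for mitochondrial glutaminyl-tRNA amidotransferase and formyltransferase, which finish charging or modify mitochondrial tRNA, 3 fell: Gatc (-0.50), Gatb (-0.32) and Qrsl1 (-0.27). Of 4 tested proofreading genes Prorsd1 rose (0.23) and Dtd1 fell (-0.18), while Dtd2 had 0.06. Of 5 genes for selenocysteinyl-tRNA Sephs2 rose (0.16) and Sepsecs fell (-0.26), while Secisbp2 had -0.14. Medians over the 4 lists, in that order, were -0.13, -0.30, 0.02 and 0.08. Of all genes tested 23.9% rose and 23.6% fell. The lists are short and were not tested against these shares, and the proofreading and selenocysteine counts are near them.

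Markers of other cell types also differed between the MC38 groups. Of 5 fibroblast markers 4 were tested and all 4 rose, and their summed level was 82.0 to 87.5 FPKM in wild type and 385 to 393 FPKM with overexpression. Of those tested, Lum and Pdgfrb had wild-type means of 0.22 and 0.42 FPKM. Both passed the filter of 1 FPKM only through the overexpressing group, so their calls add little to that count. Dcn (62.7 to 69.0 against 317 to 322 FPKM, 2.27 on the log2 scale), Pdgfra (1.85) and Lum (1.39) rose the most, and Col1a1 stayed at or below 0.21 FPKM. Of 7 epithelial and intestinal markers Krt8 rose (1.31) and Krt18 fell (-1.99), and Epcam, at 0.66 to 1.05 FPKM in wild type, was listed at 0 in the 3 overexpressing libraries. Krt18, with a mean of 0.06 FPKM in overexpressing cells, passed the filter only through wild type. The summed epithelial level was 6.68 to 8.86 FPKM in wild type and 8.90 to 10.7 FPKM with overexpression. Of 6 leukocyte markers Cd68 rose (0.38), the sum was 2.06 to 2.86 and 3.04 to 4.16 FPKM, and Cd3e was at 0. Endothelial markers summed to at most 0.29 FPKM. In bulk RNA more cells of a type and more of its RNA per cell cannot be told apart. The part of these differences in the synthetase results was not tested.

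In B16-F10 cells labelled Ssbp4 knockout no synthetase passed the test. By limma 0 of 37 were called, against 2.23% of all 10902 genes tested, 1.33% higher and 0.899% lower. At an unadjusted limma p under 0.05 there were 7 of 37 members, all cytosolic and all with negative values (Eprs, Farsb, Farsa, Wars, Sars, Rars and Kars). So were 2325 of all 10902 genes, and the share of members is no larger than that background over both directions. The background for negative values alone was not counted. The groups did not overlap in 6 of 37 members (16.2%), all lower in knockout libraries. Over all genes tested they did not overlap in 13.9%, of which the lower ones made up 5.32% and the higher ones 8.53% of the genes tested, so the share of members is near the background over both directions and above it for lower alone. Medians of the log2 fold change were -0.05 over the cytosolic members, 0.02 over the mitochondrial members and 0.02 over all genes. Of the genes called in this line 59.7% were higher, a share of 73.1% with libraries scaled to a common FPKM total and of 42.9% with median-of-ratios scaling. Without wild-type libraries 1 and 2 there were 10 synthetases called, 9 lower and 1 higher, and without libraries 3 and 4 there were 5, of which 3 were lower and 2 higher. In the same fits 25.8% and 12.4% of all genes tested were called, 10.2% and 5.17% lower, so these counts over both directions are near the background. For lower calls alone, the 9 of 37 members without libraries 1 and 2 are above it. Both fits called Eprs, Farsa and Farsb lower, and those pairs of libraries were chosen from expression values, so p-values from such fits are too small.

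**Figure D4:**
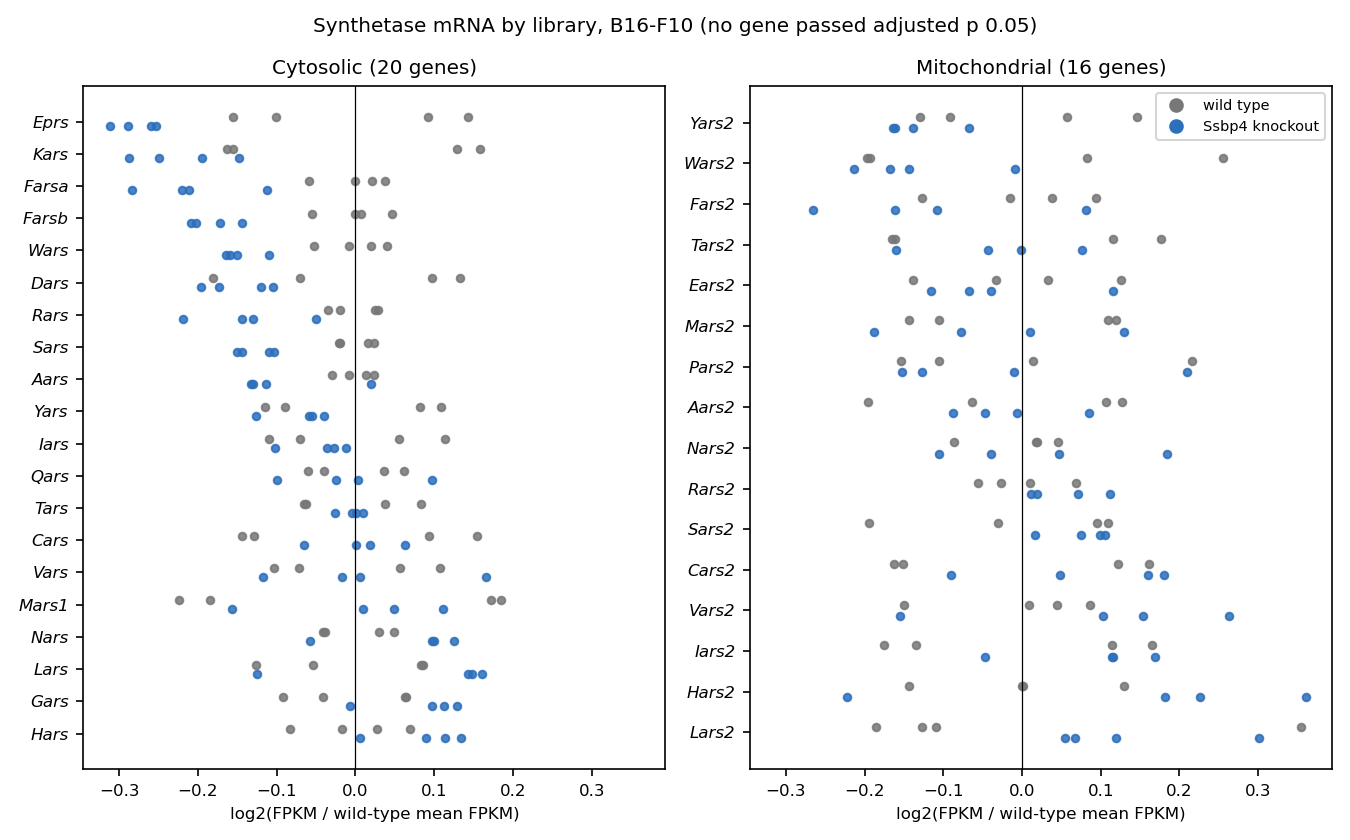
Level of each reported synthetase mRNA in each B16-F10 library relative to its wild-type mean (log2 ratio of FPKM, horizontal), for 4 wild-type (grey) and 4 knockout (blue) libraries; none passed the adjusted test. Eprs has the lowest log2 fold change at -0.27, and the wild-type libraries split into pairs in Kars, Mars1 and others.

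Eprs came closest in size. It measured 99.4, 95.8, 118 and 114 FPKM in wild-type B16-F10 and 89.5, 85.9, 87.3 and 89.1 FPKM in knockout libraries. All 4 knockout libraries lay below every wild-type library, but wild-type libraries 3 and 4 lay well above 1 and 2, and the log2 fold change of -0.27 (SE 0.068) had a limma adjusted p of 0.0677. Farsb measured 67.5, 65.0, 69.8 and 67.9 FPKM in wild type and 58.4, 58.7, 61.1 and 59.99 FPKM in knockout libraries. Farsa measured 40.1, 40.7, 38.5 and 41.2 FPKM in wild type and 37.1, 34.4, 32.95 and 34.6 FPKM in knockout libraries. Both subunits of phenylalanyl-tRNA synthetase were thus lower in all 4 knockout libraries, at -0.18 (SE 0.041, limma adjusted p = 0.0566) and -0.20 (SE 0.048, limma adjusted p = 0.0610).

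Wars, Kars and Gars are given in full for this line too. Wars measured 63.6, 61.7, 65.7 and 64.8 FPKM in wild type and 59.3, 57.6, 57.1 and 57.3 FPKM in knockout libraries. Its groups did not overlap, at a log2 fold change of -0.14 (SE 0.040, limma adjusted p = 0.0882). Kars measured 91.2, 91.7, 114 and 112 FPKM in wild type and 92.2, 89.3, 85.9 and 83.7 FPKM in knockout libraries. Its knockout libraries overlapped wild-type libraries 1 and 2 only, and the log2 fold change of -0.21 had an adjusted p of 0.183. Gars measured 269, 260, 289 and 289 FPKM in wild type and 303, 299, 296 and 275 FPKM in knockout libraries, at 0.08 with overlapping groups (limma adjusted p = 0.413).

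The remaining members lay between -0.14 and 0.15 on the log2 scale. Rars and Sars did not overlap between groups, at -0.13 each (adjusted p = 0.147 and 0.112). Dars (-0.14), Aars (-0.09), Yars (-0.07), Iars (-0.04), Qars (-0.00) and Tars (-0.00) had negative values with overlapping groups. Cars (0.01), Vars (0.01), Mars1 (0.02), Nars (0.07), Lars (0.08) and Hars (0.08) had positive values. Of the mitochondrial genes Yars2 was lowest at -0.12, followed by Wars2 and Fars2 at -0.10 each. Tars2, Ears2, Mars2, Pars2 and Aars2 lay from -0.02 to -0.01, and Nars2, Rars2, Sars2, Cars2, Vars2, Iars2 and Hars2 lay from 0.02 to 0.13.

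Lars2 was the highest mitochondrial gene in every B16-F10 library. It measured 187, 129, 134 and 136 FPKM in wild type and 159, 154, 181 and 152 FPKM in knockout libraries. The log2 fold change was 0.15 with overlapping groups (limma adjusted p = 0.485). The gene entry AY036118, looked at once Lars2 was seen, measured 6.75, 3.02, 3.32 and 3.17 FPKM in wild type. In knockout libraries it measured 3.51, 3.46, 4.98 and 3.76 FPKM. Both entries were thus highest in wild-type library 1 and lowest in wild-type library 2. In overexpressing MC38 AY036118 measured 4.65, 5.07 and 4.36 FPKM, without the low library 1 of Lars2. Whether Lars2 levels hold fragments of other transcripts was not tested.

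Related genes mostly did not pass in B16-F10 either. Of 28 tested genes of the Atf4 list 2 rose and 0 fell, with a median of 0.01. Nupr1, a stress-induced nuclear protein, rose from 14.1 to 17.5 FPKM to 23.9 to 29.97 FPKM (0.78, limma adjusted p = 0.00364), and Cebpg, a partner of Atf4, rose by 0.24 (adjusted p = 0.0495). Atf5, a related factor, had 0.45 (adjusted p = 0.0504) and Ddit3 had -0.24 (adjusted p = 0.136). Atf4 was 243 FPKM in wild type and 242 FPKM in knockout libraries as means. Of 6 tested interferon genes Cxcl10 fell (-0.91, adjusted p = 0.0280), while Gbp2 had 0.19 and Irf1 had 0.15. Max fell by 0.20 (adjusted p = 0.0498) and Myc had 0.03.

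None of the other lists for translation held a gene that passed limma's test in B16-F10. The largest values in them were Eef1e1 at -0.30, Aimp1 at -0.11 and Aimp2 at -0.04 among the scaffolds, and Ppp1r15a at -0.19, Impact at -0.14 and Ppp1r15b at -0.11 among eIF2 regulators. For delivery to the ribosome they were Eef1b2 (-0.19), Gfm1 (-0.19) and Eef1g (-0.19), the last with an adjusted p of 0.0625. Dtd1 (-0.10), Aarsd1 (0.06), Prorsd1 (-0.03), Pstk (0.19), Eefsec (0.13), Secisbp2 (-0.13), Qrsl1 (0.04), Mtfmt (-0.03) and Gatc (0.02) led the lists for proofreading, selenocysteine and mitochondrial tRNA modification. None of the 7 melanocyte markers passed: Dct had 0.36 (adjusted p = 0.121), Mitf 0.23 (adjusted p = 0.158) and Pmel 0.14 (adjusted p = 0.474). Mitf, a melanocyte transcription factor, did not overlap between groups, at 127 to 162 FPKM in wild type and 166 to 172 FPKM in knockout libraries. Among markers of other cell types Pdgfrb rose (0.63, 1.53 to 1.91 against 2.81 to 3.58 FPKM), the fibroblast sum being 2.54 to 2.74 and 3.86 to 4.30 FPKM, with Dcn at or below 0.02 FPKM. Cd68 had 0.35 and the other leukocyte markers were at or below 0.01 FPKM. The part of these differences in the synthetase results was not tested.

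Set side by side, the lines shared the sign of the fold change in 19 of 37 members, and 54.7% of the 9739 genes tested in both lines shared it. Of the 17 synthetases that fell in MC38, 13 had a negative value in B16-F10, and 53.2% of the 2363 genes that fell in MC38 and were tested in B16-F10 had one. Over the 37 members Pearson's r between the fold changes of the lines was 0.28 and Spearman's rho 0.29, a description across genes that share their libraries and are not independent. No member passed in both lines. In 12 of 16 pairs in B16-F10 the cytosolic log2 fold change lay below the mitochondrial one. Ssbp4 was raised in MC38 and lowered in B16-F10, so the same sign in both lines stands for opposite changes of Ssbp4.

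**Figure D5:**
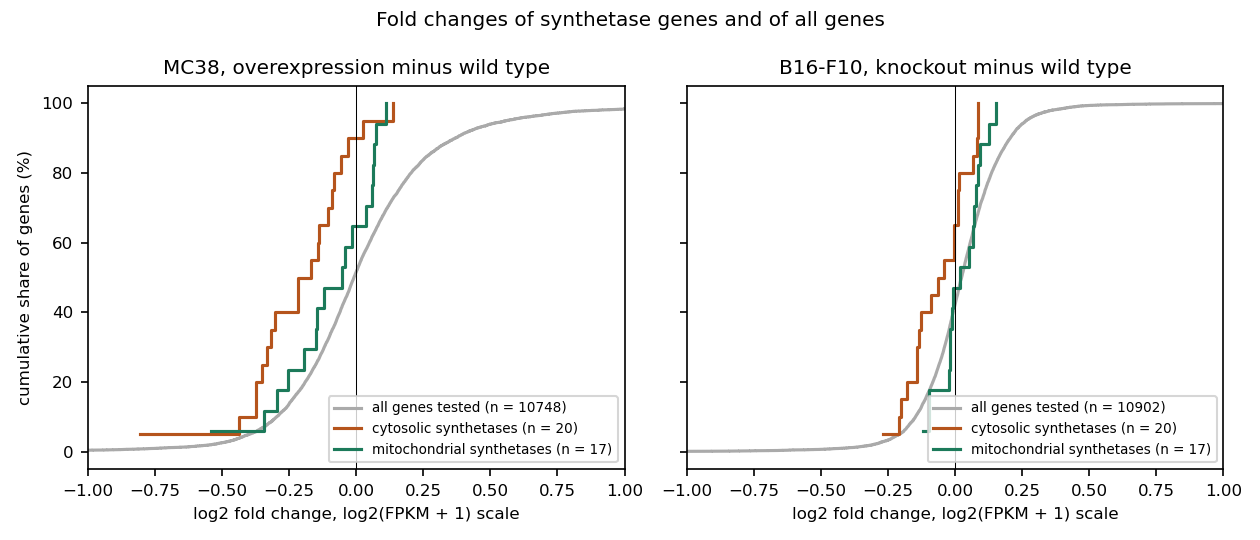
Cumulative share (vertical, %) of log2 fold changes (horizontal, log2(FPKM + 1) scale) for cytosolic synthetases, mitochondrial synthetases and all tested genes in both lines; the axis ends at -1 and 1. In MC38 the cytosolic curve lies left of that for all genes (medians -0.19 and -0.01), and in B16-F10 the medians are -0.05 and 0.02.

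Some synthetase levels could be shared with other genes. The Aars transcript ends in 1326 bases that are identical to the transcript of Exosc6 on the same strand, and Exosc6 was listed at 0 in all 15 libraries. Iars shares 1656 bases at 96.0% identity with Gm4849, also listed at 0 in all 15. Cars2, Farsa and Tars2 hold stretches of at least 100 bases with at least 95% identity to other transcripts, on the same strand. Hars and Hars2 start on opposite strands and share 195 bases, and Iars2 overlaps 2034 bases of Rab3gap2 on the opposite strand. The library kit kept strand, per the labels' protocols, but whether the authors' quantification used it is not given in the sources used here, so these levels are uncertain to that extent.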

How the data were processed

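The deposited tables give FPKM per gene symbol, 1 table for each line. FPKM was computed by the authors. Per the submitters' processing notes, GRCm39 and DESeq2 were used, with no version given for DESeq2. Which aligner, counter and gene annotation made the values is not given in the sources used here. In MC38 429 values and in B16-F10 446 values lay above 0 but under 1e-06 FPKM, so the values are estimates and not whole fragments, and count models were not used. Of the low values used to read depth, 82.8 to 87.0% lay within 0.1 of a whole number of fragments. All 15 columns were matched to samples by their labels, and 0 were left over.

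Each line was fitted alone with limma 3.58.1 in R 4.3.3, with a mean-variance trend, on log2(FPKM + 1) for genes with a mean of at least 1 FPKM in that line (10748 and 10902 genes). Every fold change here is on that scale, which understates changes of low genes. Adjustment was Benjamini-Hochberg over all genes tested, and called means an adjusted p under 0.05. The scripts were tested on simulated data. Near copies were sought with BLAST 2.17.0 among GENCODE M21 transcripts, and promoter windows came from RefSeq on GRCm38.p6, an earlier build than that of the tables, so no other coordinates are given. Figures used matplotlib 3.10.9 in Python 3.11.15.

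The members and gene lists were chosen with earlier results of these data known. The naming rule took every member, gave in each library the 8 called members with the largest fold change per line, Wars, Kars and Gars, and took up to 3 tested genes with the largest change from each list. The values of 1 member and of 1 marker are not reported here, though counts, medians and sums keep them. Members given in each library beyond that rule were picked once their values were known. The alternatives varied the pseudocount, filter, scaling, variance model, library weights and replicate block, left out each library in turn, and left out B16-F10 wild-type libraries in pairs.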

Additional observations from a re-analysis of the deposited data

Results flagged for a closer look

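In groups of 4 libraries 7 of 111 sets of values held 1 library far from the other 3, and chance gives about 1 in 20, or 5.55 of 111. In wild-type MC38 these were Sars, at 208 FPKM in library 3 against 219 to 220 FPKM in the others, Tars, at 122 FPKM in library 3 against 128 FPKM, and Yars, at 80.3 FPKM in library 2 against 76.8 to 77.2 FPKM. In wild-type B16-F10 Lars2 stood at 187 FPKM in library 1 against 129 to 136 FPKM. In B16-F10 knockout libraries Aars stood at 116 FPKM in library 1 against 104 to 105 FPKM, and in library 4 Lars stood at 39.8 FPKM against 47.9 to 48.5 FPKM and Nars at 148 FPKM against 165 to 169 FPKM. The MC38 overexpressing group, with 3 libraries, was not examined in this way.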

How the results depend on the processing

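In MC38 the call held in every alternative for 13 of the 18 synthetases that passed, and was lost in at least 1 for Dars, Mars1, Mars2, Tars and Wars2. The count of mitochondrial genes that fell, 4, was 2 with a filter at a mean FPKM of 5, 2 with no filter, 2 with the replicate block, and 2 to 3 when 1 library was left out (2 without overexpressing library 1 or 3). The filter at 5 left Mars2 and Wars2 untested, at means of 1.68 and 3.26 FPKM over MC38, so no call was lost there. Of all genes tested 27.4%, 9.47% and 17.4% fell in the first 3 of these settings. With 1 library left out 19.8 to 23.8% fell. In B16-F10 the count of synthetases called, 0, was 1 with median-of-ratios scaling (Farsb), 3 with estimated library weights (Eprs, Farsa and Farsb), 10 without wild-type libraries 1 and 2, and 5 without libraries 3 and 4. Cytosolic genes that fell numbered 1, 3, 7 and 3 in these fits, and mitochondrial ones 2 without libraries 1 and 2. In the same fits and order 1.8%, 7.12%, 25.8% and 12.4% of all genes tested were called. The shares of all genes tested that were called lower were 1.03%, 2.56%, 10.2% and 5.17%. Over all B16-F10 genes the count called, 243, was 140 with a filter at 0.1, 73 with no filter, 776 with library weights, 12 with the replicate block, 2805 without wild-type libraries 1 and 2, 1349 without 3 and 4, and 23 to 414 when 1 library was left out (23 without knockout library 2, 414 without knockout library 4). The share of B16-F10 calls that were higher, 59.7%, was 73.1% on a common FPKM total and 42.9% with median-of-ratios scaling. Fold changes of synthetases that did not pass changed sign in 61 of 679 alternative fits in B16-F10 and in 8 of 285 in MC38. The cause was not tested. Same-numbered libraries did not deviate together (correlations -0.298 to 0.165), so the numbers gave no sign of a pairing. A weak pairing could be missed, since the values were centred within groups of few libraries. Under the replicate block 13 MC38 synthetases passed, 0 B16-F10 ones did, and 3906 MC38 genes did, against 5107.

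Adjusted p-values rest on 3 or 4 libraries a group. The low mitochondrial genes, under 10 FPKM in most cases, vary more between libraries, and a change in them that misses the test is not shown to be absent.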
